A study of Macaca mulatta with 20 samples.

Results

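The killer lectin-like receptor genes KLRB1, KLRC1, KLRC3, KLRD1, KLRF1, KLRG1 and KLRK1 of natural killer (NK) cells, 7 of the 25992 gene names on the array, were followed in whole blood of rhesus macaques before and after irradiation of the thorax. Their probes were found by gene name among the non-control probes of each array, which gave 11 of the 34127 probes of the array, and 9 of the 11, covering all 7 genes, were bright enough to be tested. The animals were male rhesus macaques (Macaca mulatta) of Chinese origin that received 10 Gy of X-rays to the whole thorax in the arm of a larger study that was given no mitigating drug. RNA of 8 animals, stabilized in PAXgene tubes and depleted of globin transcripts, was hybridized to 20 one-color Agilent Whole Human Genome 4x44K v2 microarrays, with 5 arrays of blood taken before irradiation (called pre-irradiation) and 5 taken at each of days 2, 5 and 30 after it. No unirradiated group followed over the same days is among these samples, so the time since irradiation and the time in the study cannot be told apart. For 1 sample RNA was pooled from a pair of animals, and the labels do not say on which array it lies.

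Killer lectin-like receptors are membrane proteins with a C-type lectin-like domain, carried by NK cells and by part of the T cells, and most of their genes lie together in the NK gene complex. Inhibitory members such as KLRC1 (NKG2A), which pairs with KLRD1 (CD94) and binds HLA-E, hold the cell back, while activating members such as KLRK1 (NKG2D), which binds MICA, MICB and the ULBP proteins, trigger killing through small adaptor proteins. In blood these transcripts come from a minority of the white cells, so that their level in whole blood depends on how many such cells circulate as well as on how much of the RNA each cell holds.

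All 11 probes are placed by the array annotation on human chromosome 12 between bases 9147774 and 10603152 of the build hg19, 6 on the forward and 5 on the reverse strand, and the files name no exon or untranslated region for them. The probes of 60 bases that carry the results below are shown 5′ to 3′, as the files give them, because the macaque RNA was read through these human sequences. Capitals mark the cysteine codons (TGC and TGT) in the only reading frame without a stop codon, since cysteine bridges hold the lectin-like domain together, and a probe with more than 1 such frame has no capitals.
KLRB1 (A_23_P99275, chr12:9751115-9751174, reverse strand): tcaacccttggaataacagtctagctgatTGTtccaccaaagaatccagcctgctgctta
KLRC1 (A_23_P139654, chr12:10603093-10603152, reverse strand): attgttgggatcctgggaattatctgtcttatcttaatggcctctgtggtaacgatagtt
KLRC3 (A_23_P128281, chr12:10568358-10569289, reverse strand): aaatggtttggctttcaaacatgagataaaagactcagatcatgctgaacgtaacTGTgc
KLRD1 (A_23_P204208, chr12:10467295-10467354, forward strand): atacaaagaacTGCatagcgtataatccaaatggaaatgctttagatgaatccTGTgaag
KLRD1 (A_33_P3406196, chr12:10462019-10462078, forward strand): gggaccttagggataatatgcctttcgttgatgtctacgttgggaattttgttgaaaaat
KLRK1 (A_24_P193093, chr12:10531232-10531291, reverse strand): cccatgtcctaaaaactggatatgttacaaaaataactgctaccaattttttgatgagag
The KLRC3 probe covers 932 bases of the genome with its 60 bases, so it is not contiguous there. The annotation lists an accession shared by the KLRC1 and KLRC3 probes, and their signals may not come from 1 gene each. KLRC3 is also absent from the gene names of the rhesus table used here, which holds the other 6 genes on macaque chromosome 11.

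The share of spots well above background ranged from 50.9% to 67.3% over the arrays, and arrays of 1 group correlated between 0.945 and 0.978 over the probes. The arrays lay on 5 slides, each with 1 array of each group, and a group always had the same place on the slide, so that place and group cannot be told apart. Neither the labels nor the paper ties a replicate number to an animal. Blood was drawn from 8 animals and 5 samples per group were used, so the paired p-values hold only as far as equal numbers are the same animal. Levels below are the log2 processed signal minus the 75th percentile of the array, and changes are differences of these levels between arrays of the same replicate number. Errors are SD over 5 arrays or 5 pairs, or the moderated standard errors (SE) of limma. The latter pool the spread partly over all tested probes, so they can differ from the scatter of the 5 pairs of a probe. A probe was called where limma gave p below 0.005 together with a false discovery rate (FDR, Benjamini-Hochberg) below 10% over all 19961 tested probes. Levels of different probes are not compared with each other.

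Signal was well above background on all 20 arrays for the probes of KLRB1 and KLRF1 and for both probes of KLRD1. The KLRK1 probe was well above background on 19 arrays, with the exception of day 2 replicate 3. The KLRC1 probe reached it on 14 arrays, 5 before irradiation, 2 at day 2, 2 at day 5 and 5 at day 30. The KLRC3 probe reached it on 10 arrays, of which 3, 1, 1 and 5 came from the same groups in that order. KLRG1 was dim, with 5 arrays for the probe A_23_P64898 and 6 for A_24_P261760. A further KLRC1 probe (A_23_P151046, 2 arrays) and a further KLRF1 probe (A_33_P3274501, 0 arrays) were not tested.

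At 2 days after irradiation all 7 genes, each by its tested probe with the highest mean level, had negative changes, of which that of KLRB1 alone was called. The changes had a median of -1.56 on the log2 scale (SD 0.56 over 5 pairs) against -0.04 over all tested probes. The median was lower than before irradiation in 5 of 5 pairs, between -1.99 and -0.52. In whole blood RNA, fewer cells of a type and less RNA per cell cannot be told apart. Under the FDR limit 1 of the 9 member probes was called lower, that of KLRB1, where 0.01% of all tested probes were called lower. Without the FDR limit, 7 of the 9 had a p-value under 0.005 and were lower, which was so for 0.656% of all tested probes. The 7 included the KLRC1 probe and the KLRG1 probe A_24_P261760, well above background on 2 and 0 of the 5 day 2 arrays. Groups did not overlap for 4 of the 9 probes, a separation found in 1.62% of all tested probes, but 2 of the 4, those of KLRC1 and KLRG1, were mostly not well above background at day 2. Over KLRB1, KLRD1 and KLRF1, the 3 genes measured on all 20 arrays, the median was -1.56 too. Under normexp background correction the median of the 7 genes was -0.015, or -0.18 relative to all probes, and 4 of the 9 probes had changes above 0. The call of KLRB1 was lost under normexp (adjusted p = 0.339 from limma), quantile normalization, no replicate block (0.265), the slide as a block (0.299), no filter on dim probes, the paired test without pooled spread, an FDR below 5% and without replicate 1, 3, 4 or 5.

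At 5 days the changes were smaller and uneven. The median of the 7 genes was -0.47 (SD 0.76 over 5 pairs, from -1.74 to 0.26) against 0.03 over all tested probes. By limma, 0 of the 9 member probes were called, as were 0% of all probes, and 3 of the 9 had an unadjusted p below 0.05, against 11.2% of all probes. The 3 included the KLRC1 probe, well above background on 2 of the 5 day 5 arrays. A paired test without pooled spread called 0 of the 9 too. At 30 days the family stood near its level before irradiation, with a median of 0.03 (SD 0.39 over 5 pairs) against -0.02 over all tested probes, 4 genes above and 3 below. Again 0 of the 9 were called by limma or by the paired test without pooled spread, as were 0% of all probes in limma. Unadjusted p was below 0.05 for 2 of them, KLRB1 and KLRC3, both higher, and for 17.5% of all probes.

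Between day 2 and day 30 the median change over KLRB1, KLRD1 and KLRF1, measured on all 20 arrays, was 1.496. Over the 7 genes it was 1.48 (SD 0.34 over 5 pairs) against 0.00159 over all tested probes, but that middle value is the KLRG1 probe A_24_P261760, which was well above background on 0 day 2 and 2 day 30 arrays. Among the 9 member probes 4 were called higher, those of KLRB1, KLRC1 and both of KLRD1, where 0.0401% of all tested probes were called higher. The day 2 and day 30 arrays did not overlap for 5 of the 9 probes, against 1.8% of all tested probes. The 5 included the KLRC1 probe, well above background on 2 of the 5 day 2 arrays. All 4 calls were lost under normexp, where the median of the 7 genes was 0.18, with no filter on dim probes, with no replicate block, with the slide as a block, in the paired test without pooled spread, at an FDR below 5% and without replicate 1, 3, 4 or 5. Between day 2 and day 5 the median was 0.73 (SD 0.62) and from day 5 to day 30 it was 0.87 (SD 0.64). In both of these comparisons limma and the paired test without pooled spread called 0 of the 9 member probes, and limma called 0% of all probes. Unadjusted p was below 0.05 for 5 of the 9 in the first, against 3.56% of all probes, and for 6 of the 9 in the second, against 8.48%. The first count included the KLRG1 probe A_24_P261760, well above background on 0 day 2 arrays. The second included the KLRC1 and KLRC3 probes, well above background on 2 and 1 day 5 arrays.

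**Figure D1:**
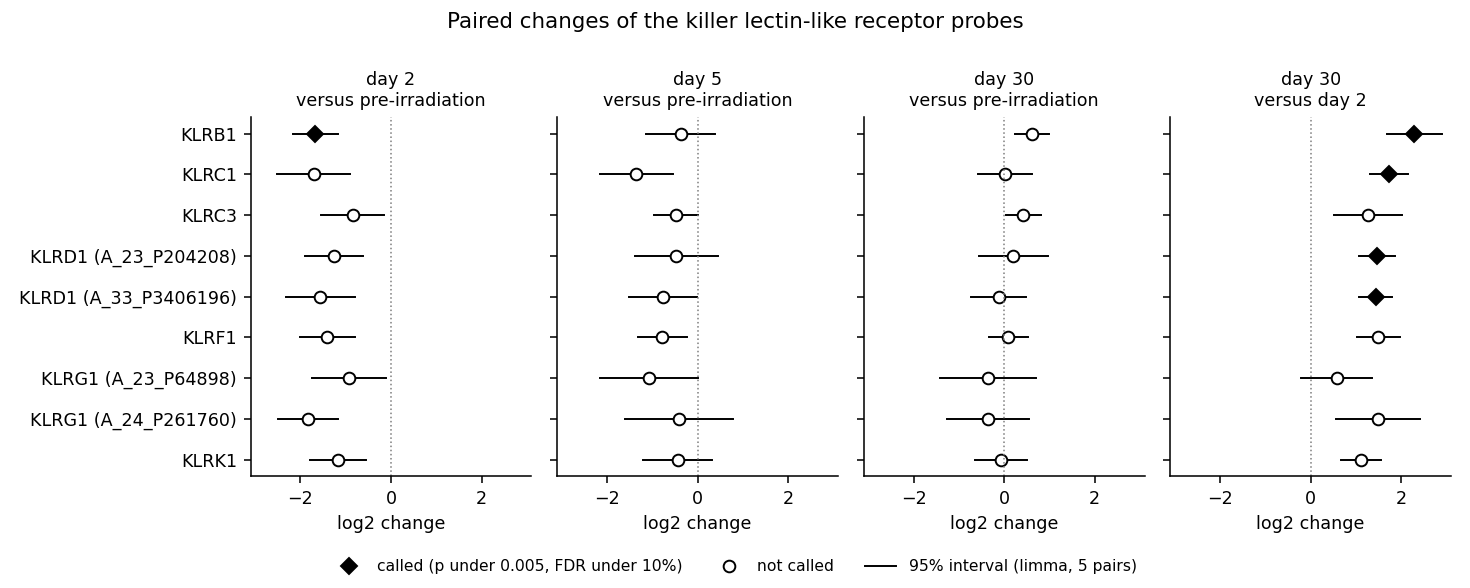
Log2 changes of the 9 tested probes in 4 of the paired comparisons, with 95% intervals from limma over 5 pairs, filled diamonds for called probes and open circles for the others. All 9 estimates lie below 0 at day 2, and all 9 lie above 0 in the comparison of day 30 with day 2, where 4 are called.

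KLRB1 (CD161) is a receptor of NK cells and of a part of the T cells that binds CLEC2D. Before irradiation its levels were 0.10, -0.61, 0.08, 0.59 and 1.06 in replicates 1 to 5. At day 2 they were -1.89, -1.37, -1.90, -1.30 and -0.67. Each day 2 array lay below each pre-irradiation array, although day 2 replicate 5 and pre-irradiation replicate 2 lay close together. KLRB1 fell by 1.67 on the log2 scale (SE 0.21, adjusted p = 0.0965 from limma), or 3.19-fold, in 5 of 5 pairs. Under normexp the fall was smaller and not called, as given below, so its size depends on how background is removed. At day 5 its levels were -0.71, -1.04, -0.61, 1.83 and -0.10. Replicate 4 was the highest of all 20 arrays, and the other 4 lay between the day 2 mean and the pre-irradiation mean. The change from pre-irradiation to day 5 was -0.37 (SE 0.33, adjusted p = 0.693 from limma). At day 30 the levels were 0.57, -0.22, 0.95, 1.41 and 1.61, each above the pre-irradiation array of its own number, with overlapping groups. That change of 0.62 (SE 0.17) was not called (adjusted p = 0.161 from limma). KLRB1 rose by 2.29 from day 2 to day 30 (SE 0.26, adjusted p = 0.0940 from limma), or 4.89-fold, the largest change of a member probe in any of the 6 comparisons. That call was lost under normexp too.

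KLRD1 (CD94) is the common partner of the NKG2 receptors and was measured by a pair of probes. The probe A_33_P3406196 had levels of 0.83, -0.44, 0.86, 0.58 and 0.95 before irradiation and of -0.24, -0.82, -1.30, -0.76 and -1.86 at day 2. Pre-irradiation replicate 2 was far below the other 4 and inside the day 2 range. At day 5 the levels were 0.81, -1.35, -0.29, 0.83 and -1.05, and at day 30 they were 1.14, 0.13, 0.24, 0.79 and -0.14. Day 5 was split, with replicates 1 and 4 at their pre-irradiation level and replicates 2, 3 and 5 within the day 2 range, while every day 30 array stood above every day 2 array. The change at day 2 was -1.56 (SE 0.33, adjusted p = 0.166 from limma), lower in 5 of 5 pairs and not called. KLRD1 rose from day 2 to day 30 by 1.43 at this probe (SE 0.16) and by 1.47 at A_23_P204208 (SE 0.17), both with an adjusted p of 0.0940 from limma and higher in 5 of 5 pairs. The levels of A_23_P204208 were -1.01, -2.24, -1.28, -2.12 and -0.999 before irradiation and -2.31, -3.02, -2.71, -2.52 and -3.40 at day 2. All day 2 arrays lay below all pre-irradiation arrays, with replicates 2 and 4 the low ones before irradiation. At day 5 they were -1.42, -2.72, -1.91, -0.92 and -3.05, and at day 30 they were -1.06, -1.36, -0.78, -1.08 and -2.35. Day 30 replicate 5 alone lay as low as the day 2 arrays. The probe A_23_P204208 had a change of -1.26 at day 2 (SE 0.28, adjusted p = 0.166 from limma), and over the 20 arrays its levels correlated with those of A_33_P3406196 with r = 0.91, a description with no test.

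KLRC1 (NKG2A) forms with KLRD1 the inhibitory receptor for HLA-E. Its levels were -2.73, -2.82, -2.50, -1.98 and -1.60 before irradiation and -4.15, -3.60, -3.81, -3.60 and -5.01 at day 2, where replicates 2 and 4 alone were well above background. With 3 of 5 day 2 arrays not well above background, the change of -1.71 (SE 0.35), which was not called (adjusted p = 0.153 from limma), has no exact size, and under normexp it was -0.02. At day 5 the levels were -3.88, -4.20, -3.45, -2.29 and -4.57, with replicates 3 and 4 well above background, and the change from pre-irradiation was -1.35 (SE 0.35, adjusted p = 0.315 from limma), lower in 5 of 5 pairs. KLRC1 was thus the 1 member with a p-value under 0.005 at day 5, a share of 0.316% of all tested probes being lower at that threshold. At day 30 the levels were -2.43, -2.15, -2.49, -1.70 and -2.73, within the pre-irradiation range. KLRC1 rose from day 2 to day 30 (1.73, SE 0.18, adjusted p = 0.0940 from limma), with all 5 day 30 arrays and 2 of 5 day 2 arrays well above background, and under normexp the change was 0.18. From day 5 to day 30 its change was 1.38 (SE 0.25, adjusted p = 0.561 from limma), higher in 5 of 5 pairs.

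KLRC3 (NKG2E) is another partner of KLRD1. Its levels lay between -3.85 and -3.15 before irradiation, between -4.93 and -3.22 at day 2, between -4.47 and -3.40 at day 5 and between -3.36 and -2.79 at day 30. Day 2 replicate 1, at -3.22, was the only day 2 array well above background and lay inside the pre-irradiation range, and its pair was the only one of the 5 that was not lower. The change at day 2 was -0.84 (SE 0.30, adjusted p = 0.269 from limma). At day 30 all 5 arrays were well above background, against 3 of 5 before irradiation, and the change was 0.43 (SE 0.17, adjusted p = 0.248 from limma), higher in 5 of 5 pairs. The day 5 and day 30 arrays did not overlap (0.611% of all tested probes), but 1 of the 5 day 5 arrays was well above background, so the change of 0.90 (SE 0.25, adjusted p = 0.561 from limma) has no exact size.

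**Figure D2:**
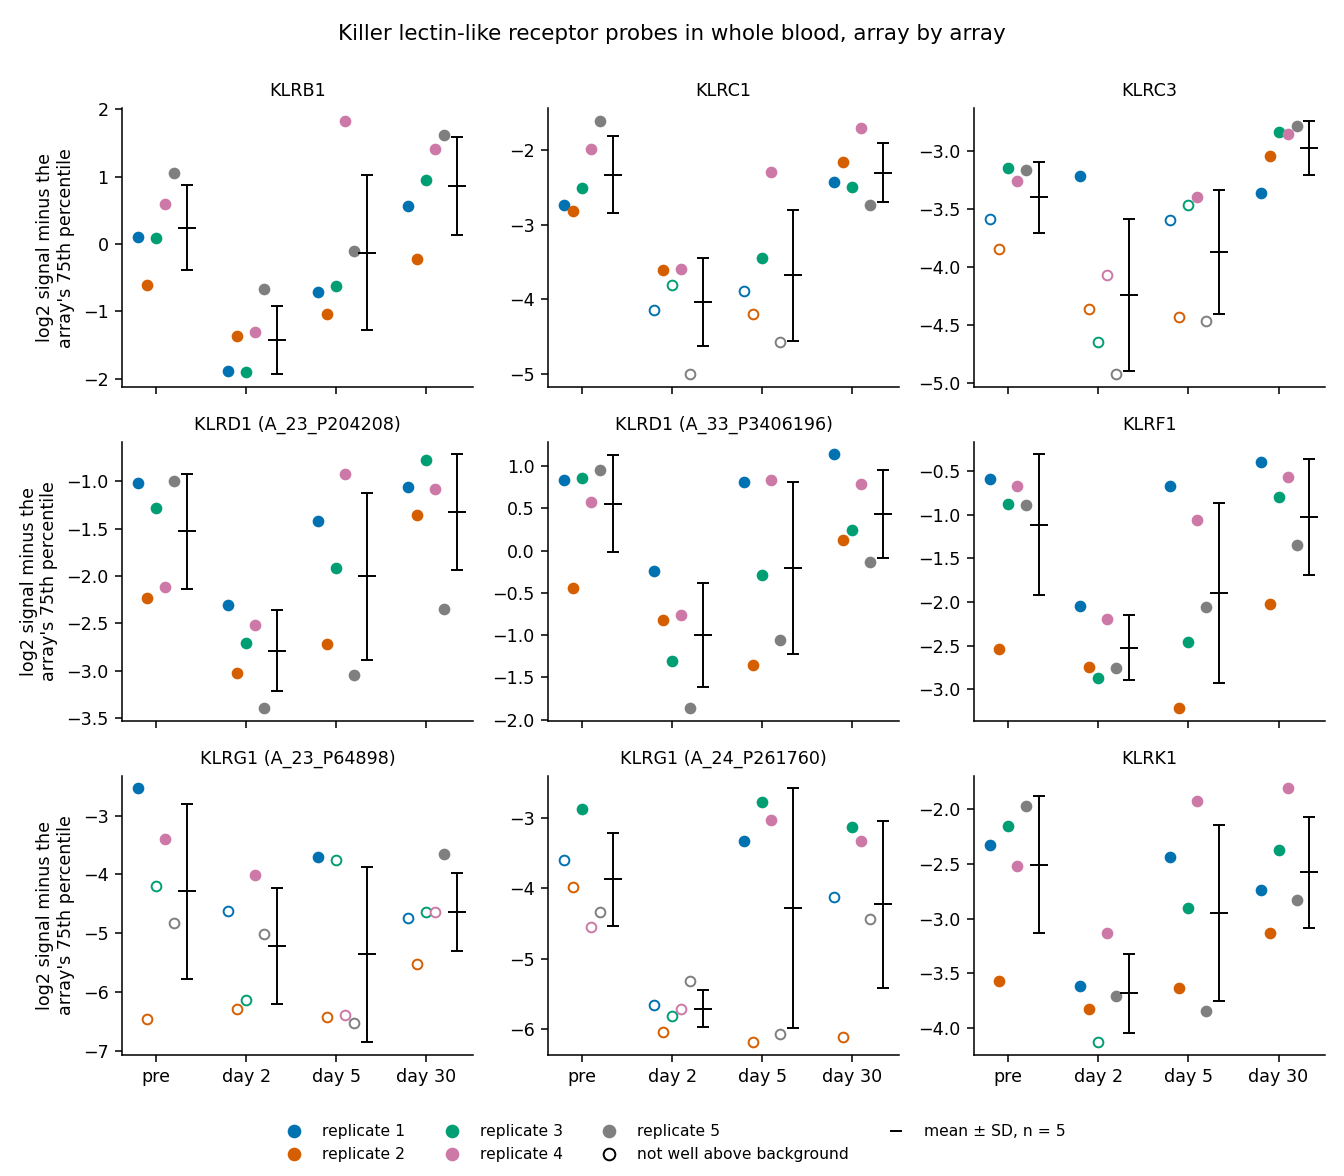
Levels of the 9 tested probes on each of the 20 arrays, on a log2 scale relative to the 75th percentile of the array, with replicate numbers in color, open symbols where the probe was not well above background and bars for mean ± SD (n = 5). For 8 of the 9 probes the mean is lowest at day 2, and for 8 of the 9 the SD is highest at day 5.

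Among the activating receptors, KLRK1 (NKG2D) signals through the adaptor HCST. Its levels were -2.33, -3.57, -2.15, -2.52 and -1.97 before irradiation and -3.62, -3.83, -4.13, -3.13 and -3.71 at day 2. Pre-irradiation replicate 2 lay within the day 2 range, and the other 4 lay above all day 2 arrays. The change of -1.18 (SE 0.27) was not called (adjusted p = 0.170 from limma), nor was the change of 1.11 from day 2 to day 30 (SE 0.19, adjusted p = 0.199 from limma), although the day 30 arrays, between -3.13 and -1.81, reached down only to the highest day 2 array without crossing it. At day 5 the KLRK1 levels were -2.43, -3.63, -2.90, -1.93 and -3.85, so that replicates 2 and 5 stood within the day 2 range, and the change from pre-irradiation was -0.44 (SE 0.33, adjusted p = 0.632 from limma). At day 30 its change was -0.07 (SE 0.25, adjusted p = 0.912 from limma).

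KLRF1 (NKp80), an activating receptor for CLEC2B, had levels of -0.60, -2.53, -0.88, -0.68 and -0.89 before irradiation. At day 2 its levels were -2.05, -2.75, -2.87, -2.20 and -2.75. Replicate 2 was again the low array before irradiation and changed least. The change of KLRF1 was -1.41 at day 2 (SE 0.26, adjusted p = 0.143 from limma) and -0.78 at day 5 (SE 0.23, adjusted p = 0.342 from limma), both lower in 5 of 5 pairs. At day 5 its levels were -0.68, -3.22, -2.45, -1.07 and -2.06, and at day 30 they were -0.39, -2.02, -0.80, -0.57 and -1.35. Replicate 2 was the lowest array on both days. Its change from day 2 to day 30 was 1.496 (SE 0.20, adjusted p = 0.143 from limma), with groups that did not overlap.

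KLRG1, an inhibitory receptor of mature NK cells and effector T cells that binds cadherins, was measured near the limit of the array. The probe A_24_P261760 was well above background on 1 pre-irradiation array, on none of the day 2 arrays, on 3 at day 5 and on 2 at day 30. Its levels lay between -4.55 and -2.88 before irradiation, -6.04 and -5.31 at day 2, -6.18 and -2.78 at day 5 and -6.11 and -3.13 at day 30. Its measured change at day 2 was -1.84 (SE 0.29, adjusted p = 0.131 from limma). Because no day 2 array and 1 pre-irradiation array measured it, no fold is given. The probe A_23_P64898 had changes of -0.93 at day 2 (SE 0.35, adjusted p = 0.291 from limma), -1.07 at day 5 (SE 0.46, adjusted p = 0.447 from limma) and -0.35 at day 30 (SE 0.47, adjusted p = 0.727 from limma). The KLRG1 probes correlated over the 20 arrays with r = 0.46, the lower one of the pairs of probes to the same gene.

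The arrays of a group differed most from each other at day 5. Day 5 had the highest SD of the 4 groups for 8 of the 9 tested probes, with a median SD of 1.02 against 0.63 before irradiation, 0.51 at day 2 and 0.61 at day 30. On day 5 replicate 2 all 7 genes were at or below the highest day 2 array, and on day 5 replicate 5 this held for 6 of 7. The number was 3 of 7 on each of replicates 1 and 3, and 1 of 7 on replicate 4. With each gene centred on its mean over the 20 arrays, the mean of the 7 genes at day 5 was 0.31, -1.16, 0.00072, 0.99 and -0.89 in replicates 1 to 5. At day 2 it was -0.69, -0.97, -1.22, -0.69 and -1.18, and at day 30 it was 0.66, -0.08, 0.79, 1.13 and 0.47. Before irradiation it was 0.58, -0.26, 0.76, 0.59 and 0.86. Replicate 2 was the lowest array of its group before irradiation, at day 5 and at day 30, and its change at day 2 was the smallest of the 5 pairs.

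**Figure D3:**
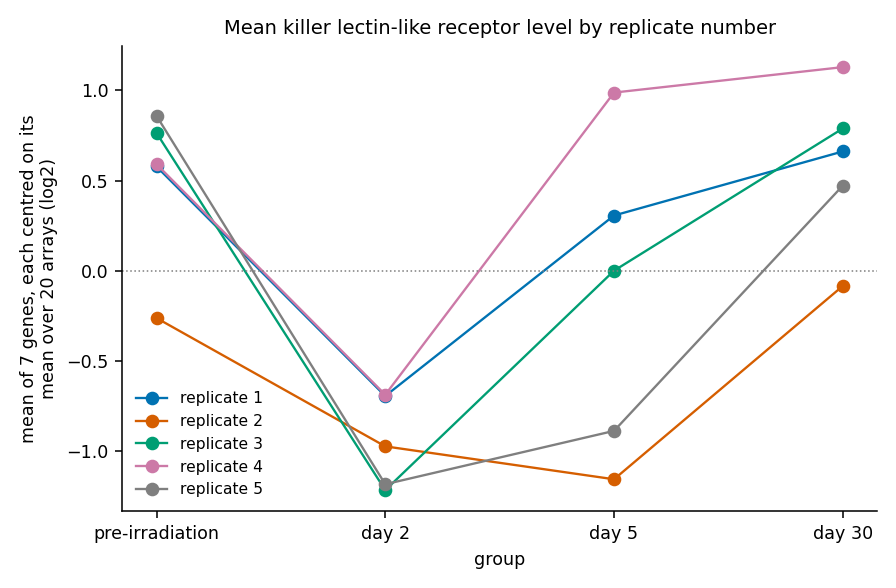
Mean level of the 7 genes, each centred on its mean over the 20 arrays (log2), for each replicate number in the 4 groups. All 5 lines drop to between -1.22 and -0.69 at day 2, spread from -1.16 to 0.99 at day 5 and lie between -0.08 and 1.13 at day 30.

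The order of the group means was lowest at day 2 for 8 of the 9 tested probes, the exception being the KLRG1 probe A_23_P64898, which was lowest at day 5. For those 8 probes day 5 came next, with pre-irradiation and day 30 above it in either order. Of the 27 steps between neighbours in these orders 0 passed the FDR limit, with a lowest adjusted p of 0.161 from limma, and 1 had p below 0.005, that of KLRC1 between day 5 and pre-irradiation. Over the 20 arrays the levels of the 7 genes, by 1 probe each, correlated with each other with r from 0.51 to 0.91 and a median of 0.73 over 21 pairs of genes. The highest value was that of KLRD1 and KLRF1. These arrays share their slides, scaling and animals, and the correlations are given as a description.

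The calls changed when 1 replicate was left out and with the way background was removed. With 1 replicate left out, the change of KLRB1 itself stayed between -1.90 and -1.59 at day 2. From day 2 to day 30 it stayed between 2.15 and 2.58. Without replicate 2 the number of member probes called at day 2 was 6, and without replicate 1, 3, 4 or 5 it was 0, with KLRB1 at an adjusted p of 0.378, 0.228, 0.428 and 0.273 from limma. The number called between day 2 and day 30 was 4 without replicate 2 and 0 without any of the other replicates. The shares of all tested probes called in these fits are not given here, so the counts cannot be read as particular to the receptors. Normexp background correction of the raw signal moved the median of all probes by 0.20 at day 2, and its difference from the processed signal was largest for dim probes. KLRB1 and the KLRD1 probe A_33_P3406196, whose signal over local background had medians of 4.85 and 5.38 over the 20 arrays, had changes of -0.82 and -0.85 under normexp. KLRC1, with a median ratio of 2.15, had -0.02, and KLRC3, KLRK1 and both probes of KLRG1, with ratios from 1.65 to 2.27, had changes above 0, from 0.05 to 0.40. The median of all probes under normexp was itself 0.17, above the change of KLRK1.

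**Figure D4:**
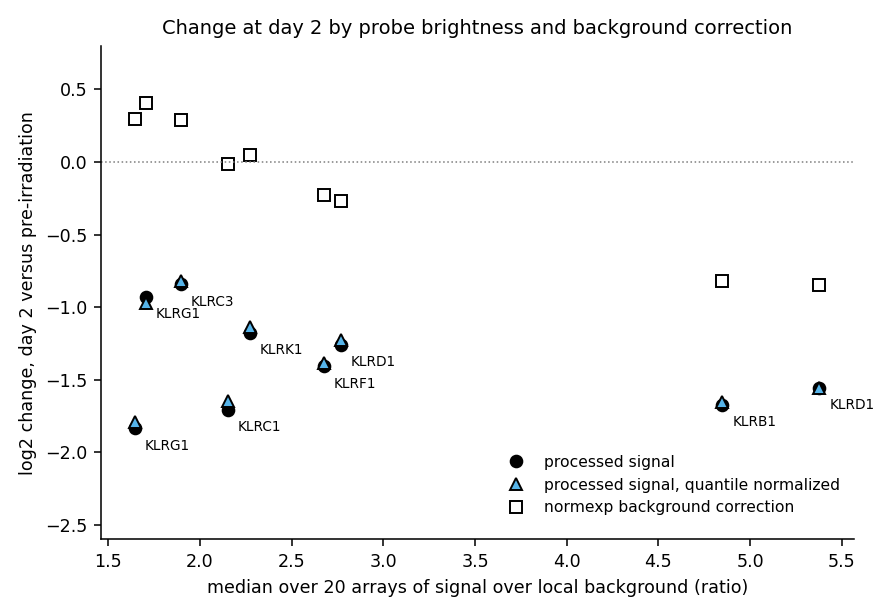
Log2 change from pre-irradiation to day 2 of the 9 tested probes under the processed signal, the same after quantile normalization, and normexp background correction, plotted against the median ratio of signal to local background over 20 arrays. The first pair of settings nearly coincide, while normexp gives changes between -0.85 and 0.40, with the lowest values at the bright probes.

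From day 2 to day 30 KLRB1 had an adjusted p of 0.247 with the slide as a block and 0.141 with no replicate block from limma. Within the 5 slides, which pair arrays of different replicate numbers between these groups, KLRB1 at day 2 was lower on 5 of 5 slides, with differences between -2.96 and -0.06. Between day 2 and day 30, where 1 of the 5 slides pairs the same number (replicate 3), the differences within slides were between 1.08 and 3.50 for KLRB1, between 1.18 and 3.31 for KLRC1 and between 0.10 and 2.66 for the KLRD1 probe A_33_P3406196, higher on 5 of 5 slides for each.

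Other genes of the same biology were read from lists of the pathway, and none is a test of the receptors. Of 4 further killer lectin-like receptor genes, KLRC4 and KLRG2 had tested probes, and KLRC2 and KLRF2 had no probe by that name. KLRC4 (NKG2F) had a change of -1.74 at day 2 (SE 0.29, adjusted p = 0.138 from limma) and rose by 1.98 from day 2 to day 30 (SE 0.18, adjusted p = 0.0940 from limma), higher in 5 of 5 pairs. KLRC4 lies next to KLRK1 in the human genome, and like KLRC3 it has no entry in the rhesus table used here.

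Ligands of the receptors had small changes at day 2, most of them above 0 and none past the FDR limit. Of 7 tested ligand genes, 6 were higher and 1 was lower at day 2, with a median of 0.24 (pairs from -0.08 to 0.46), and 0 were called. The lowest unadjusted p of the 7 was 0.031 from limma, that of HLA-E. HLA-E, the ligand of the KLRD1 pairs, had a change of 0.38, MICA and MICB, ligands of KLRK1, had 0.24 and 0.25, and CLEC2D, the ligand of KLRB1, had -0.30. Among 15 adaptors and proximal signalling genes 8 were higher and 7 lower at day 2, with a median of 0.06 and 0 called. The adaptors of the activating receptors had changes of opposite sign there, neither of them called. HCST, the partner of KLRK1, had a change of -1.02, and TYROBP, an adaptor that myeloid cells share, had 0.67. TYROBP was the 1 of 15 adaptors with p below 0.005 at day 2, where 1.9% of all tested probes were higher at that threshold. These ligands and adaptors were named after their values were seen.

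Genes of the killing machinery were mostly lower at day 2, none past the FDR limit. Of 12 tested cytotoxic effector genes 11 were lower at day 2, with a median of -1.29 (pairs from -1.77 to -0.36) against -0.04 over all tested probes, and 8 had a p-value under 0.005, against 0.656% of all tested probes lower at that threshold, while 0 were called, against 0.01%. GZMA, a granzyme, had a change of -1.88 (SE 0.30), GZMH -1.87 (SE 0.40), FASLG, the ligand of the death receptor FAS, -1.57 (SE 0.22), the pore-forming PRF1 -1.42 (SE 0.29), GNLY -1.34 (SE 0.22) and NKG7 -1.32 (SE 0.29). At day 30 against day 2, 11 of the 12 were higher, with a median of 1.32, and GZMK rose by 1.92 (SE 0.21, adjusted p = 0.0940 from limma), the 1 gene of this list that was called. Among 15 transcription factors and cytokine receptors of NK cells 12 were lower at day 2, with a median of -0.53 and 0 called. The T-box factors EOMES and TBX21, which direct the NK and effector T cell program, had changes of -1.42 (SE 0.25) and -0.99 (SE 0.18), and IL2RB, a receptor chain for interleukins 2 and 15, had -0.86 (SE 0.20). At day 5 EOMES and TBX21 had changes of -1.13 and -0.80, each with an adjusted p of 0.279 from limma and lower in 5 of 5 pairs.

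Other receptors of NK cells were mixed. Of 11 tested genes 5 were higher and 6 lower at day 2, with a median of -0.19 and 0 called. SLAMF6 had a change of -1.02 (SE 0.21, adjusted p = 0.154 from limma), and LILRB1, which monocytes and B cells carry too, had 0.71 (SE 0.20, adjusted p = 0.215 from limma). The Fc receptor FCGR3A had 0.69, and the natural cytotoxicity receptor NCR1 had -0.53, both named after their values were seen.

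**Figure D5:**
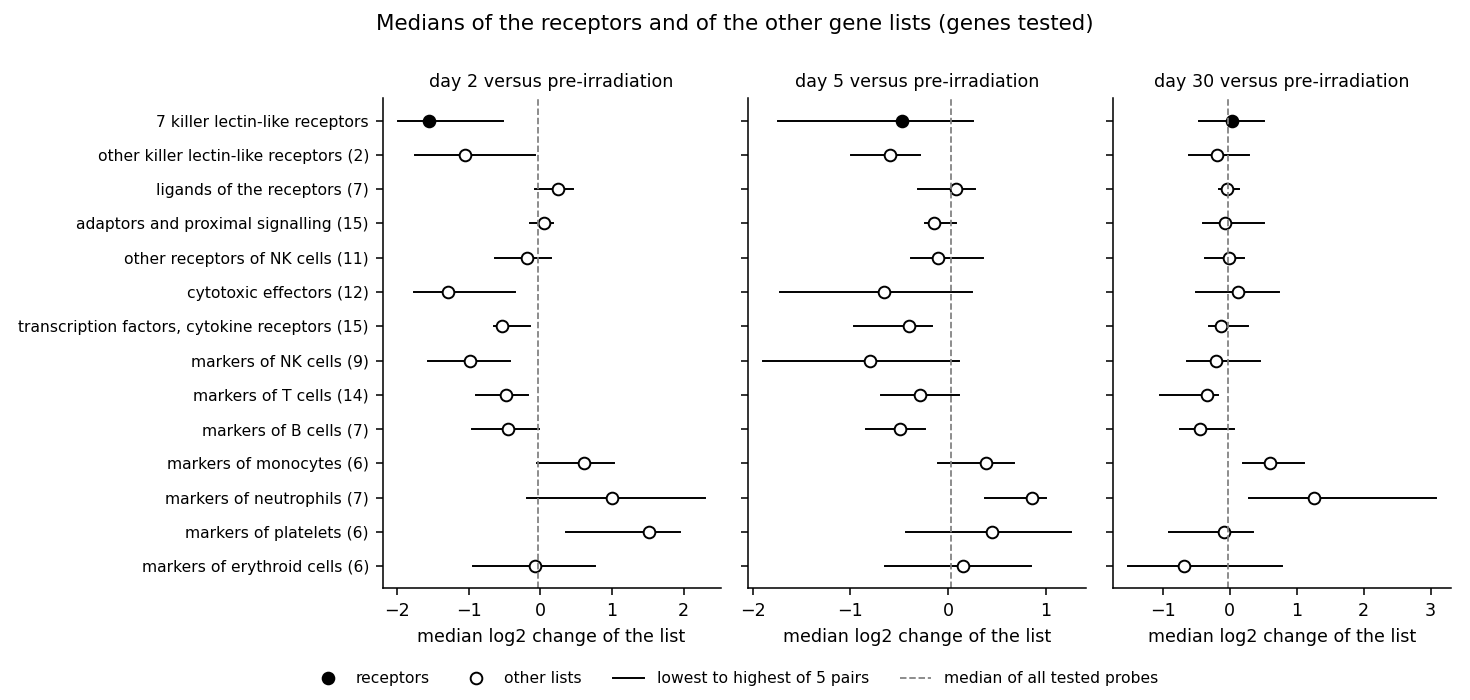
Median log2 change of the 7 receptors and of 13 other gene lists at days 2, 5 and 30 against pre-irradiation, with lines from the lowest to the highest of the 5 pairs and a dashed line at the median of all tested probes. At day 2 the receptors stand at -1.56 and the cytotoxic effectors at -1.29, while markers of neutrophils and platelets stand at 1.0 and 1.51.

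Markers of other blood cells had changes in the same comparisons, none of them called, and their part in the result of the receptors was not tested. At day 2 all 14 tested markers of T cells and all 7 tested markers of B cells were lower, with medians of -0.48 and -0.45, and 7 of 9 tested markers of NK cells were lower, with a median of -0.99. Of those 9, 7 stand in the lists above too, and the others, NCAM1 and XCL1, had changes of 0.19 and -0.99. The summed level of the NK markers, on the scale of the signal over the 75th percentile, lay between 55.9 and 105 before irradiation, 42.5 and 73.7 at day 2, 46.8 and 82.4 at day 5 and 80.8 and 95.1 at day 30. That of the T cell markers lay between 166 and 245, 117 and 192, 107 and 268, and 111 and 195. All 7 markers of neutrophils, all 6 of platelets and all 6 of monocytes were higher at day 2, with medians of 1.0, 1.51 and 0.61. The summed level of the platelet markers lay between 23.5 and 76.6 before irradiation, between 76.0 and 292 at day 2 and between 43.5 and 60.0045 at day 30. At day 30 the T cell markers had a median of -0.34, lower in 5 of 5 pairs, where the receptors had 0.03. The 9 NK markers then had a median of -0.20, with 3 higher and 6 lower. Their pair medians lay between -0.64 and 0.45, higher in 3 pairs and lower in 2. Of the NK markers S1PR5 was well above background on no array, and PAX5 among the B cell markers likewise.

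Genes whose profile over the 20 arrays was most like the mean of the 7 receptors were ranked among 15907 genes, each by 1 probe, leaving out the receptors themselves, as a description with no test. The 10 with the highest Pearson correlation were FASLG (r = 0.94), GZMB (0.93), KLRC4 (0.91), GFI1 (0.91), OPLAH (0.90), PPP2R5E (0.90), PCDH1 (0.90), SLAMF6 (0.89), PTGDR (0.88) and ACOT11 (0.88). The granzyme gene GZMB had a change of -1.27 at day 2 and of 1.61 from day 2 to day 30. GFI1, which encodes a transcriptional repressor of blood cells, had -1.17 and 1.05, and PTGDR, a receptor for prostaglandin D, had -0.95 and 0.88. PPP2R5E, a regulatory subunit of protein phosphatase 2A, followed with much smaller changes of -0.38 and 0.41. The 5 genes at the other end were TST (-0.82), LGMN (-0.80), RBM33 (-0.78), CSTB (-0.78) and TSPAN4 (-0.77). LGMN, a lysosomal protease, had a change of 1.17 at day 2 and of -0.91 from day 2 to day 30.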

How the data were processed

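Whole blood RNA of 20 arrays (4 groups of 5) was measured. Per the labels and file headers the authors scanned the arrays with Agilent Feature Extraction (10.7 in the labels, 12.0.2.2 in the headers), and the deposited intensity is the background-subtracted processed signal, not normalized between arrays. The deposited table of log2 values holds 5884 probes, and on every array 99.47% or more of them are the log2 processed signal shifted by a single constant.

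Outlier and control spots were dropped, log2 signals of the same probe were averaged, and each array was scaled by subtracting its 75th percentile over non-control spots. Probes well above background on at least 5 arrays with at least 4 pairs (19961 of 34127) were tested with limma 3.58.1 (R 4.3.3) on the arrays of the groups compared, with replicate numbers as blocks and Benjamini-Hochberg adjustment. Per the study's methods the class comparisons were matched within animals, but no source used here says which animal a replicate number is, so pairing by number is an assumption, and with no replicate block 0 member probes were called. Deviations of same-number arrays from their group means correlated with r from 0.17 to 0.48 between day 2 and pre-irradiation. Between day 30 and day 2 the range was -0.16 to 0.49, with 4 of 5 pairs over 0.1. Arrays of different numbers had a median r of -0.07 in each of these comparisons. Between day 30 and pre-irradiation the same-number range was 0.04 to 0.43, with 3 of 5 pairs over 0.1. The median r of different numbers was -0.05 there. Deviations sum to 0 within a group, so values of different numbers tend below 0 where those of equal numbers lie above it. A gene was represented by its tested probe with the highest mean level.

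The comparison was tested on simulated data. Figures were drawn with matplotlib 3.10.9 in Python 3.11.15. The number of arrays limits the precision, and no count depth applies. The receptor genes, the lists of pathway and marker genes and the naming rules were chosen with earlier results of these data known. Named were all member probes, up to 15 list genes that were called or had a p-value under 0.005, the 10 genes most and 5 genes least like the receptors, and others where the text says so or a receptor's ligand or adaptor is described. Alternatives were quantile and median scaling, normexp (offset 50), both filters on dim probes, the deposited values, other blocks, one fit of all arrays, an intensity trend, outlier spots kept, a paired test without pooled spread, each replicate left out, the mean of a gene's probes, slides, and other thresholds. Probe positions are human (hg19), and mismatches to macaque transcripts were not analysed here.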

Additional observations from a re-analysis of the deposited data

Results flagged for a closer look

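Of 36 groups of 5 arrays examined over the 9 tested probes, 2 held an array whose distance from the nearest other array passed Dixon's 95% critical value, and chance gives about 1 in 20. Both were pre-irradiation replicate 2. The KLRD1 probe A_33_P3406196 stood there at -0.44, where the other 4 arrays lay between 0.58 and 0.95. The KLRF1 probe stood at -2.53, where the other 4 lay between -0.89 and -0.60.

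The change from pre-irradiation differed between day 30 and day 2, tested as the direct paired comparison of these days, for 4 probes. It was higher at day 30 by 2.29 for KLRB1, by 1.73 for KLRC1 and by 1.47 and 1.43 for the probes of KLRD1, each with an adjusted p of 0.0940 from limma and in 5 of 5 pairs. KLRC1 was well above background on 2 of the 5 day 2 arrays, so its value has no exact size, and none of the 4 was called with no replicate block.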

How the results depend on the processing

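The median change of the 7 receptors kept its direction at day 2 and from day 2 to day 30 under every alternative run, but normexp background correction brought it to -0.015 at day 2, 0.18 from day 2 to day 30 and -0.21 from day 2 to day 5. That correction moved the median of all probes by 0.20 at day 2, and median scaling moved it by 0.18 from day 5 to day 30. With 1 replicate left out, the median lay between -1.78 and -1.28 at day 2, -0.88 and -0.26 at day 5, -0.04 and 0.23 at day 30, 0.59 and 0.90 from day 2 to day 5, 1.35 and 1.69 from day 2 to day 30 and 0.67 and 0.96 from day 5 to day 30. The number of member probes called at day 2, 1 of 9, was 0 with quantile normalization, normexp, no filter on dim probes, no replicate block, the slide as a block, the paired test without pooled spread or an FDR below 5%. It was 4 of 4 tested probes with a filter that kept probes measured well above background on all 20 arrays. With the deposited values it was 4 of 5 tested probes. Of 9 tested probes it was 5 with an intensity trend and 6 with all arrays in a single fit. With no FDR limit, 7 of 9 had p below 0.005. The number lay between 0 and 6 with 1 replicate left out. For the alternatives under an FDR limit the share of all probes called is not given here, so a rise particular to the receptors cannot be read from them. The number called from day 2 to day 30, 4 of 9, was 0 with normexp, no filter on dim probes, no replicate block, the slide as a block, the paired test without pooled spread or an FDR below 5%, and it lay between 0 and 4 with 1 replicate left out. With no FDR limit 1 was counted at day 5 and 1 from day 5 to day 30. With the stricter filter on dim probes 1 of 4 tested probes (KLRB1) was called at day 30. Within slides there is 1 difference a slide and no test of a count. The cause of these differences between settings was not tested.

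Single probes changed sign under normexp at day 2 for KLRC3 (0.29), KLRK1 (0.048) and both probes of KLRG1 (0.40 and 0.30), at day 30 for KLRK1 (0.14) and KLRG1 (0.24 and 0.22), from day 2 to day 5 for KLRC1 (-0.37), KLRC3 (-0.39), KLRF1 (-0.11), KLRK1 (-0.21) and the KLRG1 probe A_24_P261760 (-0.31), and from day 2 to day 30 for KLRG1 (-0.16 and -0.071). Under normexp the median of all probes was itself 0.17 at day 2 and 0.11 at day 30. It was -0.13 from day 2 to day 5 and -0.10 from day 2 to day 30. With 1 replicate left out, small changes that were not called crossed 0. At day 30 they lay between -0.13 and 0.32 for KLRC1, -0.0040 and 0.59 for the KLRD1 probe A_23_P204208, -0.30 and 0.12 for A_33_P3406196, -0.018 and 0.23 for KLRF1, -0.73 and 0.11 for the KLRG1 probe A_23_P64898, -0.75 and 0.089 for A_24_P261760 and -0.26 and 0.13 for KLRK1. For KLRG1 they lay between -0.89 and 0.037 at day 5 (A_24_P261760), -0.77 and 0.41 from day 2 to day 5 (A_23_P64898) and -0.34 and 0.27 from day 5 to day 30 (A_24_P261760). Dim probes such as those of KLRG1 and KLRC3 limit what can be read from these arrays.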
